A study of Chlorocebus aethiops with 24 samples.

Results

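The comparison described here was of hippocampal messenger RNA between 2 ages in vervet monkeys (Chlorocebus) with fetal alcohol spectrum disorder (FASD): 5 animals sacrificed at 2 years against 5 animals sacrificed at 5 months. These 10 arrays were chosen by their GEO labels out of 22 arrays with values, of 24 labelled, and all 11512 probe sets of the deposited table were compared. The other 12 arrays came from control animals, 6 at each age. FASD animals were exposed to ethanol before birth, which their dams drank voluntarily late in gestation, and control animals to a sucrose solution of matched calories. All animals of both groups were captive-bred males, each was measured once at a single age, and the study's methods describe the dams as selected for alcohol preference. RNA came from the whole left hippocampus and was hybridized to the Affymetrix GeneChip Rhesus Macaque Genome Array, so that vervet RNA was read by probes designed for another monkey species.

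Values are log2 expression intensities, on which a difference of 1 is a doubling. An age difference is the mean at 2 years minus the mean at 5 months, so that a positive value means a higher level at 2 years. Values of single animals are given in the order of their numbers, which are 2, 3, 4, 5 and 6 at 5 months and 1, 2, 3, 4 and 6 at 2 years. A number names an animal within its group only, and no animal was measured at both ages. P values are from the limma fit of all 4 groups and carry the Benjamini-Hochberg adjustment over all 11512 probe sets where they are called adjusted. Because the tissue was measured in bulk, fewer cells of a type and less RNA per cell cannot be told apart.

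The hippocampus is needed to form memories of places and events, and in primates it goes on maturing long after birth. New granule neurons are still added to the dentate gyrus in infancy, and young neurons carry transcription factors and guidance molecules that are turned down as they mature. Over the same period oligodendrocyte precursors become oligodendrocytes that wrap axons in myelin, inhibitory interneurons mature, and a matrix of proteoglycans called the perineuronal net forms around many of them.

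No probe set passed an adjusted p under 0.05 for the age difference in FASD animals by limma. The lowest adjusted p was 0.244, and it was shared by 2 probe sets that the annotation does not name. MmugDNA.579.1.S1_at was 7.64, 7.49, 7.75, 7.84 and 7.73 at 5 months and 8.05, 8.10, 8.21, 8.08 and 8.001 at 2 years. MmugDNA.22582.1.S1_at was 6.44, 6.69, 6.35, 6.26 and 6.90 at 5 months and 7.29, 7.54, 7.10, 7.01 and 7.04 at 2 years. For both, every animal at 2 years was above every animal at 5 months, and the age differences were 0.40 (standard error 0.08) and 0.67 (standard error 0.13). Without adjustment, 805 of 11512 probe sets had a p under 0.05 (6.99%), of which 542 were higher at 2 years (4.71% of all probe sets) and 263 lower (2.28%). A p under 0.01 was reached by 186 probe sets. All genes named as higher or lower in what follows are therefore described by their values and by an unadjusted p, and none passed the adjusted threshold with all arrays included.

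Most age differences were small. The median over all probe sets was 0.016, 6.78% differed by more than 0.25 in either direction and 0.782% by more than 0.5. The most negative value belonged to the annotated symbol USP14, which encodes a deubiquitinase of the proteasome. Its probe set was 8.70, 7.18, 8.89, 7.32 and 5.95 at 5 months and 4.59, 6.34, 6.42, 5.56 and 5.69 at 2 years. The spread within both ages was wide, the ranges overlapped in animal 6 at 5 months, and the difference was -1.89 (standard error 0.70; limma, unadjusted p = 0.0135, adjusted p = 0.628). The 2 ages did not overlap in 106 probe sets that were higher at 2 years (0.921% of all) and in 45 that were lower (0.391%).

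The tilt towards higher levels at 2 years was 67.3% of the 805 probe sets, and it was uneven over the range of intensities. When all probe sets were split into 5 equal parts by their mean level, the share that was higher among those with an unadjusted p under 0.05 was 53.9%, 61.0%, 77.4%, 69.9% and 70.6% from the dimmest to the brightest. With each array centred on its own median, the share was 56.4%. One animal weighed on it strongly. FASD animal 2 at 5 months had the lowest array mean of the 10, at 7.90, while the others lay between 7.94 and 7.98. It led the first principal component of the FASD arrays, which held 33.9% of the variance. Without that animal 317 probe sets were higher and 250 lower at an unadjusted p under 0.05, a share of 55.9% higher, and 393 of these 567 probe sets were among the 805. FASD animal 2 at 2 years stood second on that component, and without animal 2 of both ages, an alternative chosen after seeing the data, 316 were higher and 278 lower. The mean of all probe sets differed by 0.01 between the ages (two-sided exact permutation test with 252 arrangements of the animals, p = 0.516, where 0.00794 was the smallest p possible).

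**Figure D1:**
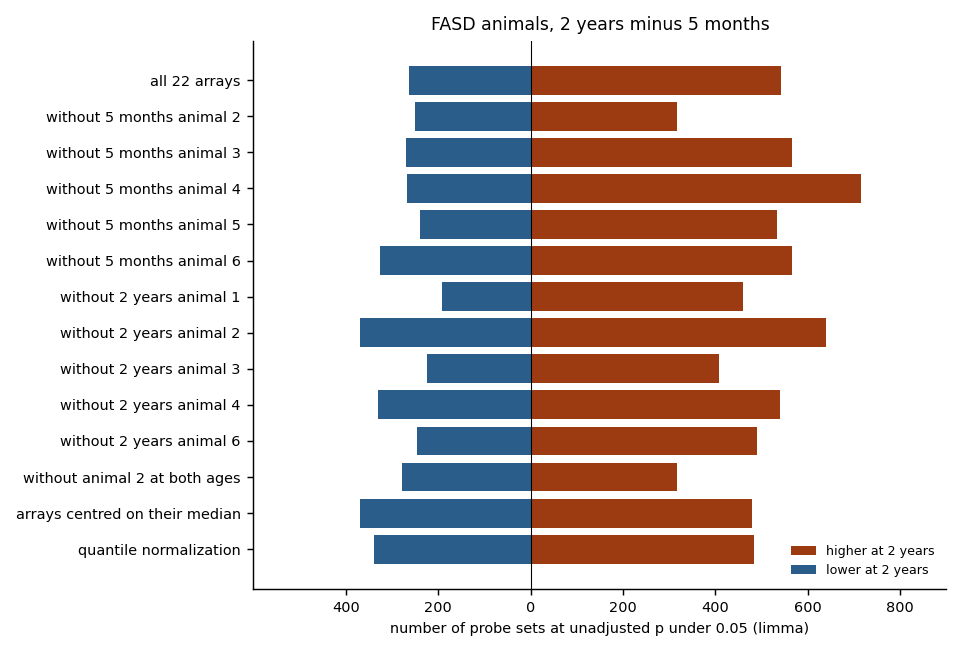
Number of probe sets with an unadjusted p under 0.05 for the age difference in FASD animals (x axis, limma), to the right where higher at 2 years and to the left where lower, for the fit of all 22 arrays and for fits that left out FASD arrays or rescaled the arrays (y axis). With all arrays 542 were higher and 263 lower, and without animal 2 at 5 months 317 were higher and 250 lower.

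Genes of immature neurons held some of the largest age differences in FASD animals, and they were lower at 2 years. SEMA3C, SOX4 and SOX11 were each lower at 2 years than at 5 months in 4 of the 5 animals at 2 years when set against the whole 5-month range, and the same animal, number 4, was the exception each time. SEMA3C encodes a secreted semaphorin that guides growing axons and migrating cells. Its level was 7.16, 7.29, 7.36, 7.53 and 7.31 in the 5 FASD animals at 5 months and 6.31, 5.19, 6.17, 7.33 and 6.46 in the 5 FASD animals at 2 years. The age difference was -1.03 (standard error 0.27; limma, unadjusted p = 0.000782, adjusted p = 0.405). SOX4, a transcription factor of newborn and maturing neurons, was 9.89, 10.17, 10.25, 10.13 and 10.19 in the 5 FASD animals at 5 months and 9.56, 9.47, 9.18, 10.29 and 9.31 in the 5 FASD animals at 2 years. Animal 4 at 2 years was the highest of all 10, the other 4 lay below every animal at 5 months, and the age difference was -0.57 (standard error 0.14, unadjusted p = 0.000422, adjusted p = 0.405 by limma). Its close relative SOX11 was 8.45, 8.15, 8.15, 8.26 and 8.04 in the 5 FASD animals at 5 months and 7.46, 8.03, 7.09, 8.34 and 6.99 in the 5 FASD animals at 2 years. Animal 4 at 2 years lay within the 5-month range, animal 2 just below it and the other 3 well below it, with an age difference of -0.63 (standard error 0.19; limma, unadjusted p = 0.00376, adjusted p = 0.591).

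Without FASD animal 4 at 2 years, SOX4 and BZW2 passed an adjusted p under 0.05 by limma, and the lowest adjusted p was 0.000573. That fit was among those that each left out a single array. The control age difference, which lost no array in that fit, had 6 probe sets under the same threshold, against 0 with all arrays. BZW2 encodes a protein that competes with a translation initiation factor. It was 9.92, 9.68, 9.42, 9.55 and 9.68 in the 5 FASD animals at 5 months and 9.26, 8.93, 9.09, 9.67 and 8.97 in the 5 FASD animals at 2 years. The same animal was the only one at 2 years within the 5-month range, and the age difference with all animals was -0.47 (standard error 0.11, unadjusted p = 0.000321, adjusted p = 0.405 by limma). Across the list of immature neuron and differentiation genes, animal 4 had the highest mean of the animals at 2 years, at 0.16 above the mean of all arrays, while the other 4 lay between -0.15 and -0.03. What sets animal 4 apart was not tested.

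The immature neuron list as a whole did not move with these genes. Of its 25 probe sets, 4 had an unadjusted p under 0.05 and all 4 were lower at 2 years, against 2.28% lower over all probe sets, but the median of the list was 0.008, against 0.016 for all probe sets. Centring the arrays or quantile normalization brought that median just below 0, and without FASD animal 2 at 5 months it was -0.08. The other probe set at this threshold was one of TBR1, a transcription factor of glutamatergic neurons, at -0.20 (unadjusted p = 0.0105), with no overlap between the ages, and a second probe set of TBR1 was at 0.07 (unadjusted p = 0.526). DCX, which encodes the microtubule protein doublecortin of migrating neurons, was at -0.27 (unadjusted p = 0.0621), and at -0.37 (unadjusted p = 0.0147) without FASD animal 2 at 5 months. TBR1 and DCX were picked out here after their values were seen.

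**Figure D2:**
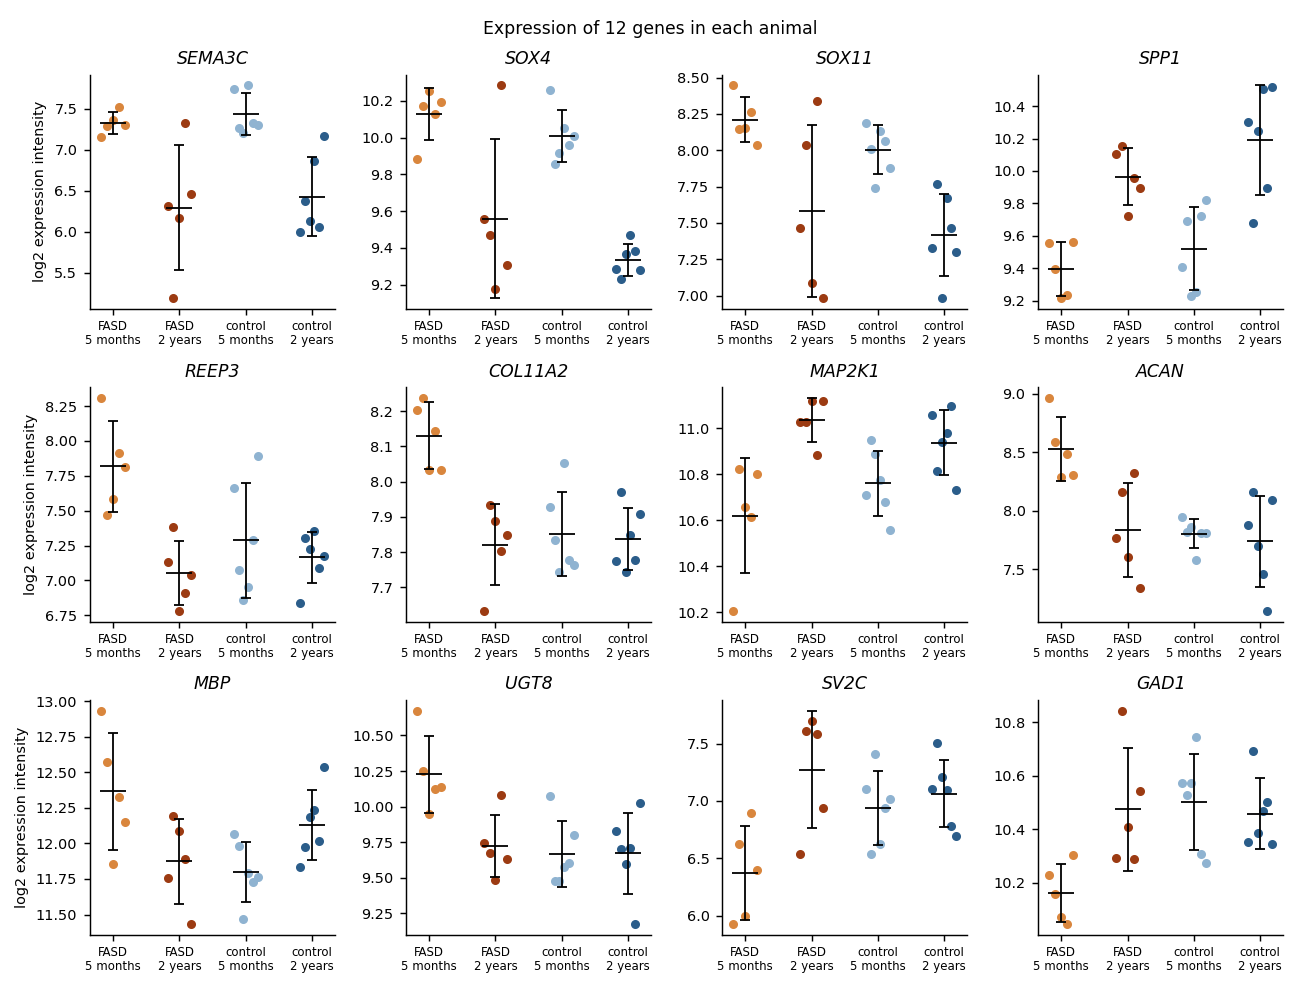
Log2 expression intensity (y axes, not starting at 0) of 12 genes in each animal, with FASD and control animals at 5 months and 2 years on the x axis. Points are animals, horizontal lines are group means and bars are 1 SD. In SEMA3C, SOX4 and SOX11 a single FASD animal at 2 years lies above the 4 others, and in SPP1, REEP3, COL11A2 and MAP2K1 the 2 ages of FASD animals do not overlap.

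Several oligodendrocyte precursor genes were lower at 2 years in FASD animals, and so were 4 myelin genes. Of 13 probe sets of the precursor list, 4 had an unadjusted p under 0.05 and all were lower, against 2.28% lower over all probe sets. The list median was -0.22, the lowest of the lists with more than 8 probe sets, and 11 of the 13 were below 0. The clearest separation was in NEU4, which encodes a sialidase. It was 7.001, 7.04, 6.86, 7.01 and 6.95 in the 5 FASD animals at 5 months and 6.68, 6.80, 6.81, 6.85 and 6.64 in the 5 FASD animals at 2 years. Every animal at 2 years was below every animal at 5 months, by an age difference of -0.22 (standard error 0.07; limma, unadjusted p = 0.00475, adjusted p = 0.591). SOX6, a transcription factor that holds precursors back from differentiating, was 9.13, 8.91, 8.84, 8.80 and 8.95 in the 5 FASD animals at 5 months and 8.42, 8.85, 8.59, 8.83 and 8.30 in the 5 FASD animals at 2 years. Animals 2 and 4 at 2 years reached the low end of the 5-month range, and the age difference was -0.33 (standard error 0.10, unadjusted p = 0.00409, adjusted p = 0.591 by limma).

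GPR17, a receptor of precursors that are about to differentiate, was 7.42, 7.34, 7.13, 7.41 and 7.58 in the 5 FASD animals at 5 months and 6.94, 6.58, 6.64, 7.51 and 6.10 in the 5 FASD animals at 2 years. Here too animal 4 was the one animal at 2 years within the 5-month range, and the age difference was -0.62 (standard error 0.23; limma, unadjusted p = 0.0118, adjusted p = 0.623). The fourth was VCAN, which encodes the proteoglycan versican, at -0.37 (unadjusted p = 0.0394). VCAN was named after its value was seen and also belongs to the matrix list. The median of the precursor list was -0.12 without FASD animal 2 at 5 months and -0.24 without animal 2 of both ages, and 4 and 3 probe sets, all lower, were under the threshold in those fits.

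Among 20 probe sets of oligodendrocyte and myelin genes, 4 were lower and 2 higher at 2 years at an unadjusted p under 0.05, against 2.28% and 4.71% over all probe sets, with a list median of -0.06. MBP, a main structural protein of myelin, was 12.93, 12.57, 11.85, 12.32 and 12.15 in the 5 FASD animals at 5 months and 11.76, 12.19, 12.09, 11.89 and 11.43 in the 5 FASD animals at 2 years. All 3 of its highest values were at 5 months, the ranges overlapped, and the age difference was -0.49 (standard error 0.17; limma, unadjusted p = 0.00876, adjusted p = 0.601). MAL, a membrane protein that myelin carries, was 9.93, 9.65, 9.43, 9.48 and 9.27 in the 5 FASD animals at 5 months and 9.07, 9.22, 8.87, 9.41 and 8.58 in the 5 FASD animals at 2 years, with an age difference of -0.52 (standard error 0.15, unadjusted p = 0.00177, adjusted p = 0.46 by limma). Animal 4 at 2 years was again the only one within the 5-month range for MAL.

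UGT8, the enzyme that makes galactosylceramide, a lipid of myelin, was 10.67, 10.25, 9.95, 10.12 and 10.13 in the 5 FASD animals at 5 months and 9.74, 9.68, 9.49, 10.08 and 9.63 in the 5 FASD animals at 2 years. Its age difference was -0.50 (standard error 0.15; limma, unadjusted p = 0.00284, adjusted p = 0.571), and again animal 4 alone overlapped. PLLP, which encodes plasmolipin, another membrane protein of myelin, was 10.19, 9.89, 9.49, 9.69 and 9.51 in the 5 FASD animals at 5 months and 9.13, 9.38, 8.96, 9.60 and 8.79 in the 5 FASD animals at 2 years. Animal 4 lay within the 5-month range, the other 4 below it, and the age difference was -0.58 (standard error 0.17, unadjusted p = 0.00291, adjusted p = 0.571 by limma). For each of MBP, MAL, UGT8 and PLLP the highest of the 10 animals was animal 2 at 5 months. Without it the age differences were -0.35 (unadjusted p = 0.041) for MBP, -0.43 (unadjusted p = 0.0083) for MAL, -0.39 (unadjusted p = 0.0135) for UGT8 and -0.47 (unadjusted p = 0.0132) for PLLP. The list median was then -0.006.

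The other direction was seen in PMP22, a myelin protein best known from peripheral nerve, at 9.47 ± 0.15 at 5 months and 9.83 ± 0.20 at 2 years (SD between animals, n = 5 each). Its age difference was 0.36 (standard error 0.12; limma, unadjusted p = 0.00769, adjusted p = 0.6), while a second probe set of PMP22 was at -0.08 (unadjusted p = 0.682). CLDND1, a claudin-like membrane protein named here after its value was seen, was at 0.19 (unadjusted p = 0.0475). In control animals the myelin list had 5 probe sets higher (MBP, KLK6, PMP22, CLDND1 and MYRF, the last named after its value was seen) and none lower at an unadjusted p under 0.05, against 1.78% and 3.77% over all probe sets, and a median of 0.10. The difference between the age differences of FASD and control animals had an unadjusted p under 0.05 for 4 of the 20, all of them lower in FASD animals, against 0.886% lower over all probe sets (2.11% were higher and 3.0% fell in either direction). The 4 were MBP at -0.82 (unadjusted p = 0.0018), KLK6 at -0.47 (unadjusted p = 0.0034), UGT8 at -0.51 (unadjusted p = 0.0206) and PLLP at -0.53 (unadjusted p = 0.0348), all by limma, and none had an adjusted p under 0.05. These values include FASD animal 2 at 5 months, the highest FASD animal for each of the 4 genes. They also include control animal 5 at 2 years, with a list mean of -0.342 against 0.017 to 0.157 in the others of its group. MBP was at 0.33 in control animals, where it was 11.47 to 12.06 with a median of 11.78 at 5 months and 11.83 to 12.54 with a median of 12.10 at 2 years. KLK6, a protease of oligodendrocytes, was 6.88, 6.58, 6.66, 6.68 and 6.73 in the 5 FASD animals at 5 months and 6.69, 6.84, 6.77, 6.35 and 6.52 in the 5 FASD animals at 2 years, so that the FASD ages overlapped, and its age difference was -0.07 in FASD animals and 0.39 in control animals.

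Of 45 probe sets of extracellular matrix genes, 5 were lower and 2 higher at 2 years at an unadjusted p under 0.05, against 2.28% and 4.71% over all probe sets, and the median was -0.04. ACAN encodes aggrecan, the main proteoglycan of perineuronal nets. It was 8.96, 8.59, 8.29, 8.48 and 8.30 in the 5 FASD animals at 5 months and 7.77, 8.16, 7.602, 8.32 and 7.34 in the 5 FASD animals at 2 years. Animal 4 at 2 years overlapped the 5-month range, and the age difference was -0.69 (standard error 0.18; limma, unadjusted p = 0.00106, adjusted p = 0.435). HAPLN1, which links such proteoglycans to hyaluronan, was 6.87, 6.64, 6.83, 6.90 and 6.80 in the 5 FASD animals at 5 months and 6.13, 6.596, 6.56, 6.69 and 6.41 in the 5 FASD animals at 2 years, with an age difference of -0.33 (standard error 0.11, unadjusted p = 0.00641, adjusted p = 0.595 by limma). The other 3 were named after their values were seen. FBN1, a protein of microfibrils, was at -0.18 (unadjusted p = 0.0407) in one probe set, and at -0.16 (unadjusted p = 0.0861) without FASD animal 2 at 5 months, while a second probe set of FBN1 was at 0.18 (unadjusted p = 0.0553). THBS1, a secreted glycoprotein that promotes synapse formation, was at -0.58 (unadjusted p = 0.0394). HAPLN4, another link protein, went the other way at 0.50 (unadjusted p = 0.0281), and at 0.35 (unadjusted p = 0.11) without that animal.

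SPP1 encodes osteopontin, a secreted phosphoprotein made by activated microglia and other cells, and belonged to the matrix and the microglia lists. It was 9.55, 9.40, 9.22, 9.23 and 9.56 in the 5 FASD animals at 5 months and 10.10, 10.16, 9.72, 9.95 and 9.89 in the 5 FASD animals at 2 years. All 5 animals at 2 years were above all 5 at 5 months, by 0.57 (standard error 0.15; limma, unadjusted p = 0.00081, adjusted p = 0.405). In control animals it was 9.23 to 9.82 with a median of 9.55 at 5 months and 9.68 to 10.52 with a median of 10.27 at 2 years, an age difference of 0.67, and the 2 age differences differed by -0.10 (standard error 0.20, unadjusted p = 0.636 by limma). COL11A2, a fibrillar collagen chain that was not on the matrix list, was 8.20, 8.24, 8.03, 8.14 and 8.03 in the 5 FASD animals at 5 months and 7.63, 7.93, 7.89, 7.80 and 7.85 in the 5 FASD animals at 2 years. The ages did not overlap and the age difference was -0.31 (standard error 0.07, unadjusted p = 0.000321, adjusted p = 0.405 by limma). Its control animals were 7.74 to 8.05 with a median of 7.81 at 5 months and 7.74 to 7.97 with a median of 7.81 at 2 years, and FASD minus control age difference was -0.30 (standard error 0.10, unadjusted p = 0.00647 by limma). COL11A2 was named for its low p in FASD animals. Such a choice also favours a low p for this difference, which holds the same FASD values.

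SV2C, a synaptic vesicle glycoprotein, had the most positive age difference of all probe sets. It was 5.93, 6.62, 6.00, 6.90 and 6.401 in the 5 FASD animals at 5 months and 6.54, 7.61, 7.70, 7.59 and 6.94 in the 5 FASD animals at 2 years. Animals 2, 3, 4 and 6 at 2 years were above all animals at 5 months, and the age difference was 0.90 (standard error 0.22; limma, unadjusted p = 0.000498, adjusted p = 0.405). MAP2K1, the kinase that activates the ERK pathway, was 10.21, 10.82, 10.66, 10.61 and 10.80 in the 5 FASD animals at 5 months and 11.03, 11.03, 11.12, 10.88 and 11.12 in the 5 FASD animals at 2 years. The ages did not overlap, and the age difference was 0.41 (standard error 0.10, unadjusted p = 0.000488, adjusted p = 0.405 by limma). Animal 2 at 5 months was the lowest for MAP2K1 and SV2C, and without it the age differences were 0.31 (unadjusted p = 0.00168) and 0.79 (unadjusted p = 0.00236).

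Of 14 probe sets of interneuron and GABA genes, 2 were higher and none lower at an unadjusted p under 0.05, against 4.71% and 2.28% over all probe sets, and the median was 0.04. GAD1, the main enzyme of GABA synthesis, was 10.23, 10.16, 10.07, 10.05 and 10.30 in the 5 FASD animals at 5 months and 10.29, 10.84, 10.41, 10.29 and 10.54 in the 5 FASD animals at 2 years. Animals 2, 3 and 6 at 2 years were above the 5-month range and animals 1 and 4 at its upper end, and the age difference was 0.31 (standard error 0.10; limma, unadjusted p = 0.00622, adjusted p = 0.591). SLC12A5, the chloride exporter that makes GABA inhibitory in mature neurons, was 10.90, 11.43, 11.40, 11.44 and 11.40 in the 5 FASD animals at 5 months and 11.47, 11.64, 11.63, 11.45 and 11.62 in the 5 FASD animals at 2 years. The ages did not overlap, but animal 2 at 5 months was far below the rest. The age difference of SLC12A5 was 0.25 (standard error 0.11, unadjusted p = 0.0262, adjusted p = 0.664 by limma), and 0.15 (unadjusted p = 0.122) without that animal.

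Potassium, sodium and pacemaker channels had 2 of 21 probe sets higher at that threshold, against 4.71% over all probe sets, none lower, and a median of 0.09. KCNK1, a leak potassium channel, was 9.76, 9.61, 9.53, 9.58 and 9.48 in the 5 FASD animals at 5 months and 10.04, 9.68, 10.03, 9.69 and 9.996 in the 5 FASD animals at 2 years, with an age difference of 0.30 (standard error 0.09; limma, unadjusted p = 0.00367, adjusted p = 0.591). KCNJ10, the potassium channel of astrocytes, was 9.76, 9.90, 9.65, 9.67 and 9.66 in the 5 FASD animals at 5 months and 10.22, 10.15, 10.08, 9.71 and 9.92 in the 5 FASD animals at 2 years. Animal 4 at 2 years overlapped the 5-month range for KCNJ10, and the age difference was 0.29 (standard error 0.10, unadjusted p = 0.00707, adjusted p = 0.6 by limma). Among 19 probe sets of excitatory neurons and synapses the single one at an unadjusted p under 0.05 was BDNF, a growth factor of synapses that was also on the immediate early list. It was 7.37, 7.27, 8.06, 7.83 and 7.65 in the 5 FASD animals at 5 months and 7.78, 7.92, 8.003, 8.09 and 7.94 in the 5 FASD animals at 2 years, and its age difference was 0.31 (standard error 0.12; limma, unadjusted p = 0.0179, adjusted p = 0.637), or 0.24 (unadjusted p = 0.0621) without animal 2 at 5 months. The medians of the excitatory and the channel lists, 0.09 each, were -0.0001 and 0.02 without that animal.

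Only 3 probe sets of glutamate receptors were in the table, and none had an unadjusted p under 0.05. GRIK1, a kainate receptor subunit, was 7.76, 7.07, 7.13, 7.21 and 7.62 in the 5 FASD animals at 5 months and 7.599, 7.53, 7.83, 7.56 and 7.53 in the 5 FASD animals at 2 years, an age difference of 0.25 (unadjusted p = 0.0932), or 0.35 (unadjusted p = 0.0214) without animal 2 at 5 months. GRIA1, an AMPA receptor subunit, was 9.14, 10.88, 11.04, 10.96 and 10.78 in the 5 FASD animals at 5 months and 10.76, 10.56, 11.25, 11.17 and 10.56 in the 5 FASD animals at 2 years. Animal 2 at 5 months stood apart in GRIA1, and the age difference turned from 0.30 (unadjusted p = 0.232) to -0.06 (unadjusted p = 0.676) without it. GRIA4, another AMPA receptor subunit, was at 0.06 (unadjusted p = 0.62).

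MDGA2, an adhesion molecule of synapses, was 5.70, 5.14, 5.42, 5.47 and 5.13 in the 5 FASD animals at 5 months and 4.87, 4.98, 5.10, 4.96 and 4.83 in the 5 FASD animals at 2 years. The ages did not overlap, the age difference was -0.43 (standard error 0.11; limma, unadjusted p = 0.000777, adjusted p = 0.405), the control age difference was 0.04, and the FASD minus control difference was -0.46 (standard error 0.15, unadjusted p = 0.00494 by limma). MDGA2 too was named for its low p in FASD animals, which favours a low p for the FASD minus control difference. NPAS1, a transcription factor of interneurons, was 9.59, 9.01, 8.84, 9.01 and 8.82 in the 5 FASD animals at 5 months and 8.23, 8.83, 8.63, 8.44 and 8.45 in the 5 FASD animals at 2 years. Its age difference was -0.54 (standard error 0.14, unadjusted p = 0.000739, adjusted p = 0.405 by limma), and -0.40 (unadjusted p = 0.00303) without animal 2 at 5 months, the highest of the 10. NR2F2, a nuclear receptor of interneurons and vessels, was higher at 2 years, at 8.47, 8.68, 9.02, 8.83 and 8.79 in the 5 FASD animals at 5 months and 9.33, 10.29, 8.87, 8.92 and 9.41 in the 5 FASD animals at 2 years. Animal 2 at 2 years was the highest, animals 3 and 4 overlapped the 5-month range, and the age difference was 0.61 (standard error 0.20; limma, unadjusted p = 0.00573, adjusted p = 0.591).

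Immune genes had few members under the threshold. Of 36 probe sets of major histocompatibility complex (MHC) and interferon response genes, 2 were higher at 2 years at an unadjusted p under 0.05 and none lower, against 4.71% and 2.28% over all probe sets. The list median was 0.08, was 0.16 without FASD animal 2 at 5 months and fell to 0.04 without FASD animal 6 at 2 years. MAMU-I, a macaque MHC class I gene, was 9.31, 8.05, 8.66, 9.14 and 8.36 in the 5 FASD animals at 5 months and 9.39, 9.54, 9.44, 8.99 and 9.47 in the 5 FASD animals at 2 years. Animal 2 at 5 months was near the animals at 2 years and the other 4 were below it, animal 4 at 2 years was the lowest of its group, and the age difference was 0.67 (standard error 0.23; limma, unadjusted p = 0.00814, adjusted p = 0.6). GBP2, an interferon-induced guanylate-binding protein, was 7.02, 7.002, 7.07, 6.99 and 7.002 in the 5 FASD animals at 5 months and 7.30, 7.33, 7.05, 7.36 and 7.17 in the 5 FASD animals at 2 years, with an age difference of 0.23 (standard error 0.09, unadjusted p = 0.015, adjusted p = 0.63 by limma). MHC genes are near-identical copies of one another and vary between animals, so probes may share signal between them. TRIM22, an interferon-induced antiviral protein that was not on the list, was 7.86, 7.64, 7.56, 8.05 and 7.90 in the 5 FASD animals at 5 months and 7.99, 9.28, 8.77, 8.07 and 8.11 in the 5 FASD animals at 2 years. Animals 2 and 3 at 2 years carried the highest values, and the age difference was 0.64 (standard error 0.19; limma, unadjusted p = 0.0022, adjusted p = 0.507).

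In control animals the same 36 probe sets had none higher and 5 lower at an unadjusted p under 0.05, against 1.78% and 3.77% over all probe sets. The 5 were TAP1, TAPBP, XAF1, IFI35 and MAMU-B, and the median of all 36 was -0.11. Control animals at 5 months were uneven, with means of this list between -0.265 and 0.45, against -0.089 to 0.104 in control animals at 2 years. The age difference of FASD animals minus that of controls had an unadjusted p under 0.05 in 5 of the 36, each higher in FASD animals, against 2.11% higher over all probe sets. For MAMU-I it was 0.82 (standard error 0.31, unadjusted p = 0.0147 by limma) and for GBP2 0.27 (unadjusted p = 0.0306). MAMU-I and GBP2 were named by their p in FASD animals, which favours a low p here. The other 3 were named after their values were seen, the peptide transporter TAP1 at 0.46 (unadjusted p = 0.00642), its partner TAPBP at 0.33 (unadjusted p = 0.0237) and the interferon-induced IFIT3 at 0.83 (unadjusted p = 0.0325). None of the 5 had an adjusted p under 0.05 by limma. In FASD animals the microglia and complement list had 1 of 20 probe sets higher, which was SPP1, and none lower, with a median of 0.04. Over all probe sets 4.71% were higher and 2.28% lower. CD14, a receptor for bacterial lipopolysaccharide on microglia, was at 0.36 (unadjusted p = 0.0714), and MRC1, a mannose receptor of macrophages at brain borders, at 0.18 (unadjusted p = 0.0747), with a second probe set of MRC1 at -0.09 (unadjusted p = 0.432).

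**Figure D3:**
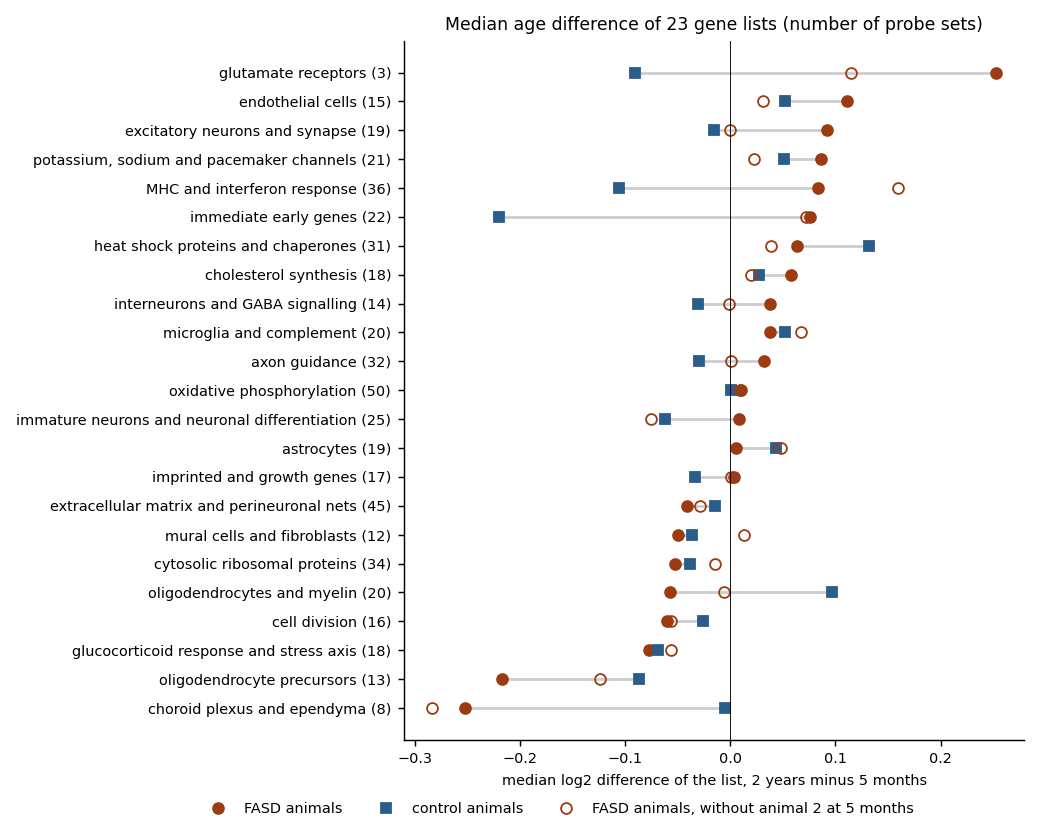
Median log2 age difference (x axis, 2 years minus 5 months) of 23 gene lists (y axis, number of probe sets in brackets) in FASD animals, in control animals and in FASD animals without animal 2 at 5 months. Grey lines join the FASD and control values. The oligodendrocyte precursor list lies at -0.22 in FASD animals, and the immediate early list at 0.08 in FASD and -0.22 in control animals.

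Genes with the lowest p values outside these groups were of mixed function. REEP3, a protein that shapes the endoplasmic reticulum, had the lowest p of the named genes. It was 8.31, 7.47, 7.59, 7.91 and 7.81 in the 5 FASD animals at 5 months and 7.14, 7.39, 6.78, 6.91 and 7.04 in the 5 FASD animals at 2 years. The ages did not overlap, and the age difference was -0.77 (standard error 0.18; limma, unadjusted p = 0.00025, adjusted p = 0.405). Control animals were 6.86 to 7.89 with a median of 7.18 at 5 months and 6.84 to 7.35 with a median of 7.20 at 2 years, and the age differences of FASD and control animals differed by -0.64 (standard error 0.24, unadjusted p = 0.0132 by limma). SLC25A17, a carrier of the peroxisomal membrane, was 10.76, 10.25, 9.76, 10.07 and 9.96 in the 5 FASD animals at 5 months and 9.47, 9.81, 9.47, 9.49 and 9.26 in the 5 FASD animals at 2 years, with an age difference of -0.66 (standard error 0.17, unadjusted p = 0.000673, adjusted p = 0.405 by limma). Animal 2 at 2 years reached the 5-month range of SLC25A17, and its control age difference was 0.01. The difference from controls was -0.67 (standard error 0.23, unadjusted p = 0.00699 by limma). REEP3 and SLC25A17 were named for a low p in FASD animals, a choice that favours a low p for their differences from controls.

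MAN2A2, a mannosidase of the Golgi that trims protein sugars, was 8.53, 8.97, 9.05, 9.003 and 9.01 in the 5 FASD animals at 5 months and 9.24, 9.36, 9.48, 9.24 and 9.28 in the 5 FASD animals at 2 years. The ages did not overlap, animal 2 at 5 months was far below the rest, and the age difference was 0.41 (standard error 0.10; limma, unadjusted p = 0.000463, adjusted p = 0.405), or 0.31 (unadjusted p = 0.00175) without that animal. GPBP1L1, a protein related to a promoter-binding factor, was 9.11, 9.24, 9.22, 9.22 and 9.27 in the 5 FASD animals at 5 months and 9.48, 9.46, 9.43, 9.36 and 9.34 in the 5 FASD animals at 2 years. All 5 animals at 2 years were above all 5 at 5 months by a small margin, and the age difference was 0.20 (standard error 0.05, unadjusted p = 0.00078, adjusted p = 0.405 by limma). The paper reports that quantitative PCR of GPBP1L1 went in the other direction from the array, and proposes that its primers bound elsewhere. For SOX4 the paper found the same direction by both methods. The paper gives these PCR fold changes for age as a factor of the whole study, not for FASD animals alone. CMTM7, a membrane protein of the chemokine-like family, was 8.01, 7.63, 7.45, 7.53 and 7.59 in the 5 FASD animals at 5 months and 7.21, 7.20, 7.19, 7.45 and 7.24 in the 5 FASD animals at 2 years, an age difference of -0.38 (unadjusted p = 0.000681). RUBCNL, a regulator of autophagy, was 7.58, 7.79, 7.49, 7.61 and 7.84 in the 5 FASD animals at 5 months and 8.02, 8.13, 7.97, 7.83 and 8.06 in the 5 FASD animals at 2 years, an age difference of 0.34 (unadjusted p = 0.000715). CILP, a protein of cartilage matrix, was 4.51, 4.92, 4.84, 5.26 and 4.82 in the 5 FASD animals at 5 months and 4.95, 5.32, 6.15, 5.55 and 6.14 in the 5 FASD animals at 2 years. Its values at 2 years spread over more than 1 log2 unit, 4 of 5 lay above the 5-month range, and the age difference was 0.75 (standard error 0.24; limma, unadjusted p = 0.00535, adjusted p = 0.591).

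The remaining lists each had at most 4 probe sets with an unadjusted p under 0.05, to be read against 4.71% higher and 2.28% lower over all probe sets. Heat shock proteins and chaperones had 2 of 31 higher and 1 lower, with a median of 0.06. They were HSPA6, an inducible heat shock protein, at 0.22 (unadjusted p = 0.00573), BAG3, a co-chaperone, at 0.27 (unadjusted p = 0.0491), and HSF1, the factor that switches these genes on, at -0.15 (unadjusted p = 0.0492). Cholesterol synthesis had 1 of 18 higher and 1 lower, with a median of 0.06. SREBF2, the transcription factor that drives this pathway, was at 0.17 (unadjusted p = 0.037), and TM7SF2, one of its enzymes, at -0.31 (unadjusted p = 0.01). Neither overlapped between the ages.

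Immediate early genes had 1 of 22 higher, BDNF, and 1 lower, ARC, a regulator of synaptic strength, at -0.44 (unadjusted p = 0.0223). The list median was 0.08 in FASD animals, and -0.006 without FASD animal 4 at 5 months. Control animals had none higher and 7 lower in this list, against 1.78% and 3.77% over all probe sets, with a median of -0.22. Control animal 6 at 2 years had a list mean of -0.476, and the others of its group lay between -0.151 and 0.162. Control animals at 5 months lay between -0.0139 and 0.243. No member of that list had an unadjusted p under 0.05 for the difference between the age differences. Axon guidance had 2 of 32 higher and 2 lower and a median of 0.03. One of these was SEMA3C, and the others were NTNG2, a netrin-like adhesion protein, at -0.25 (unadjusted p = 0.0253), the ephrin receptor EPHA2 at 0.17 (unadjusted p = 0.0263) and the semaphorin receptor PLXNA2, named after its value was seen, at 0.19 (unadjusted p = 0.0471). Oxidative phosphorylation had 1 of 50 lower and none higher, with a median of 0.01. That one was ATP5MC1, a subunit of ATP synthase, at -0.47 (unadjusted p = 0.00505).

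Cytosolic ribosomal proteins had 1 of 34 lower, RPL12 at -0.18 (unadjusted p = 0.0472), with a median of -0.05. Imprinted and growth genes had 1 of 17 lower, the RNA-binding protein IGF2BP3 at -0.23 (unadjusted p = 0.0429), with a median of 0.004. The glucocorticoid list had 1 of 18 lower, the metallothionein MT1E at -0.57 (unadjusted p = 0.0266), with a median of -0.08. Cell division had 1 of 16 higher, the mitotic kinase AURKA at 0.21 (unadjusted p = 0.00593), while a second probe set of AURKA was at -0.06 (unadjusted p = 0.578), and a median of -0.06. Without FASD animal 2 at 5 months the unadjusted p of BAG3, HSF1, ARC, NTNG2, EPHA2, PLXNA2, RPL12 and IGF2BP3 was between 0.0621 and 0.142. No probe set of the list of red blood cell genes was in the table.

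Markers of other cells that a hippocampal dissection can hold varied between animals. Choroid plexus and ependyma genes had none of 8 probe sets with an unadjusted p under 0.05, against 6.99% over all probe sets. Of the 8, 7 were below 0, with a median of -0.25. The mean of this list relative to all arrays was -0.25, 0.28, 0.23, 0.22 and -0.12 in animals 2, 3, 4, 5 and 6 at 5 months, and between -0.35 and -0.13 at 2 years. FOLR1, a folate receptor of choroid plexus, was at -0.69 (unadjusted p = 0.0796), and KCNJ13, its potassium channel, at -0.52 (unadjusted p = 0.115). Mural cell and fibroblast genes had none of 12, with a median of -0.05 and list means between -0.10 and 0.36 at 5 months and between -0.33 and 0.39 at 2 years. Endothelial genes had 1 of 15 higher, against 4.71% over all probe sets. The higher one was NOSTRIN, a regulator of nitric oxide synthase, at 0.22 (unadjusted p = 0.0157) and in a second probe set at 0.12 (unadjusted p = 0.327). The endothelial median was 0.11, and 0.03 without FASD animal 2 at 5 months. Astrocyte genes had none of 19, with a median of 0.005 that lay between -0.01 and 0.05 when single arrays were left out. Whether these levels bear on the age differences above was not tested.

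**Figure D4:**
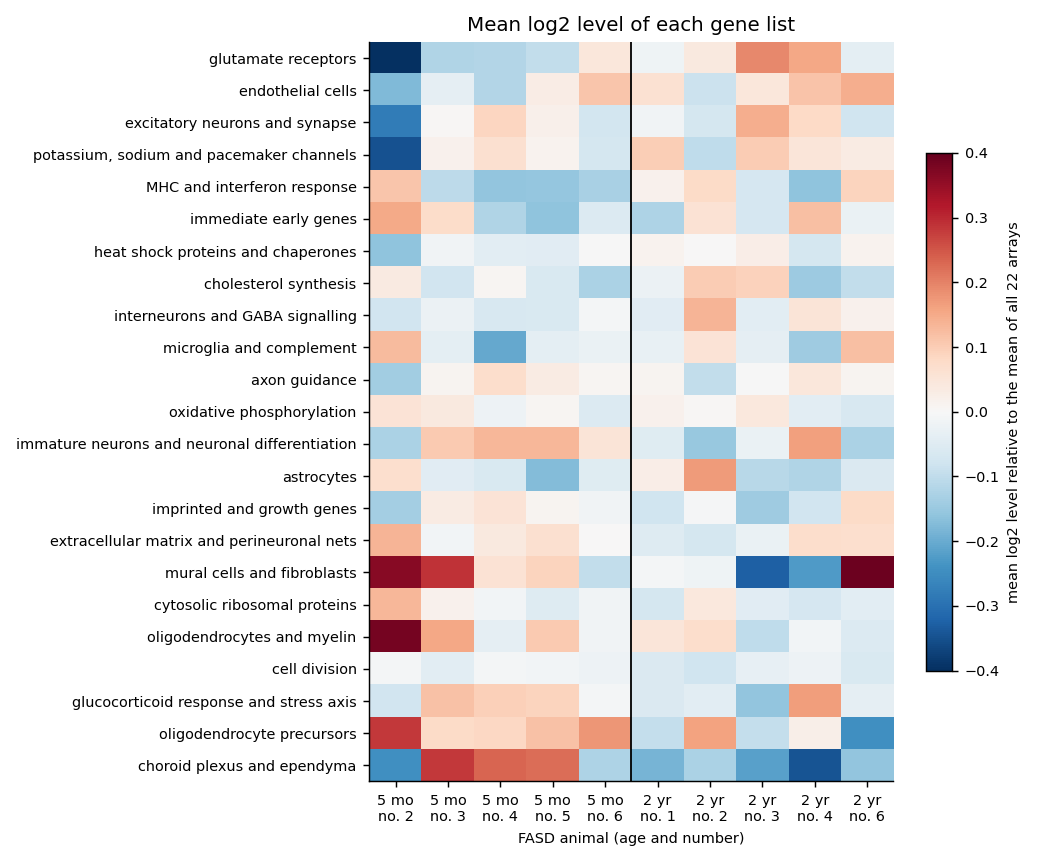
Mean log2 level of each gene list (y axis) in each of the 10 FASD animals (x axis, 5 at 5 months to the left of the black line and 5 at 2 years to the right), relative to the mean of all 22 arrays, as colour. Animal 2 at 5 months is high for oligodendrocyte and myelin genes, at 0.38, and low for channel genes, at -0.35.

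Animal 2 at 5 months stood apart in several of these lists at once. Its list mean was 0.38 for myelin, where the other 4 animals at 5 months lay between -0.04 and 0.16, and 0.28 for precursors, where they lay between 0.08 and 0.18. For channels it was -0.35, against -0.07 to 0.07, and for excitatory neurons -0.28, against -0.07 to 0.08. Without it the list medians were also 0.01 for mural cells and fibroblasts, -0.001 for interneurons, 0.12 for glutamate receptors, 0.07 for microglia, 0.0006 for axon guidance, 0.02 for cholesterol synthesis, 0.04 for heat shock proteins and -0.01 for ribosomal proteins. Other values without this animal are given beside the genes it touches most.

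Age differences of FASD and control animals were set side by side over all probe sets. Pearson's r was 0.316 and Spearman's rho was 0.25 over 11512 probe sets, which are not independent replicates and share 1 normalization. In control animals 639 probe sets had an unadjusted p under 0.05 (5.55%), 205 higher at 2 years (1.78%) and 434 lower (3.77%), and none an adjusted p under 0.05 by limma. The share higher was 32.1% of the 639, but 54.7% with each array centred on its median and 46.7% with quantile normalization. The size of the tilt thus rested on the scaling, and its direction turned with centring only. Of the 639, 112 were shared with the 805 of FASD animals, which is 13.9% of the FASD list and 17.5% of the control list. Of the 112, 43 were higher in both, 60 lower in both and 9 opposite. SEMA3C at -1.01, SOX4 at -0.67, SOX11 at -0.58 and TRIM22 at 0.66 in control animals were among the shared ones. The FASD minus control differences of these genes were, in the same order, -0.02 (unadjusted p = 0.946), 0.10 (unadjusted p = 0.582), -0.04 (unadjusted p = 0.868) and -0.01 (unadjusted p = 0.957) by limma.

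**Figure D5:**
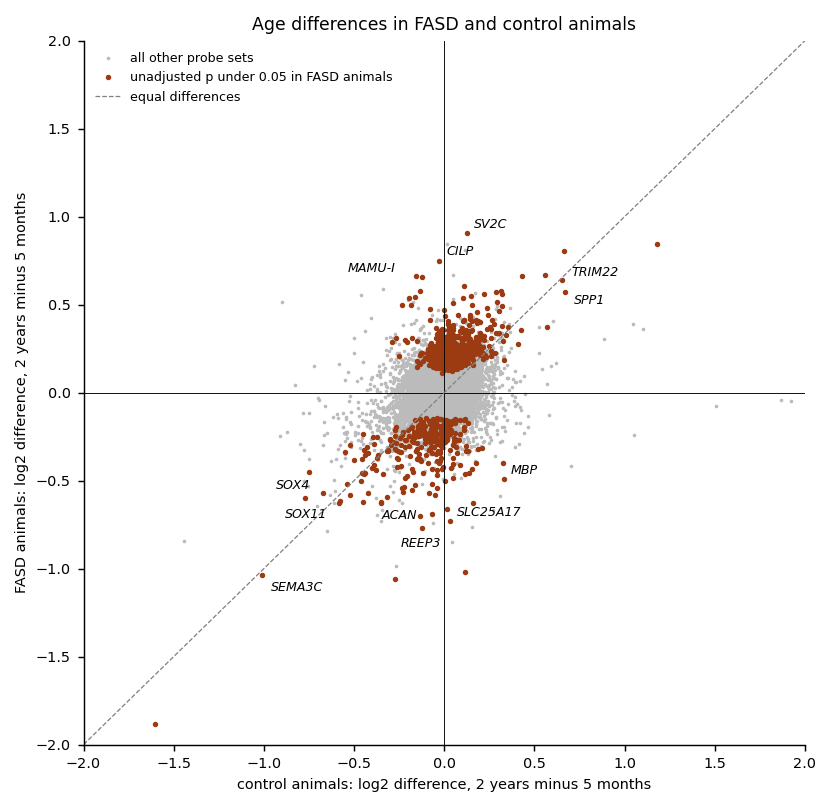
Age difference (log2, 2 years minus 5 months) of each of 11512 probe sets in control animals (x axis) and FASD animals (y axis). Red points had an unadjusted p under 0.05 in FASD animals, and the dashed line marks equal differences. SEMA3C, SOX4, SOX11, SPP1 and TRIM22 lie near that line, and REEP3, ACAN, SV2C, SLC25A17 and MBP lie away from it.

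The age difference itself was tested between exposures by the interaction, the FASD minus the control age difference. No probe set had an adjusted p under 0.05, and the lowest was 0.9997 by limma. An unadjusted p under 0.05 was reached by 345 probe sets (3.0%), 243 of them higher in FASD animals (2.11%) and 102 lower (0.886%). With each array centred on its median, 38.2% rather than 70.4% of such probe sets were higher, and with quantile normalization 51.8%. The size of this split thus rested on the scaling, and its direction turned with centring only. Of the 805 probe sets of the FASD comparison, 157 had an interaction p under 0.05. The interaction contains the FASD age difference, so a choice by a low p for that difference favours a low interaction p. The 157 are therefore no separate sign that the age difference depends on exposure.

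The 6 named genes of lowest interaction p, which include MBP and KLK6, had age differences of opposite sign in FASD and control animals. A choice by low interaction p favours opposite signs. Some of these age differences were small, such as KLK6 in FASD animals at -0.07 (limma, unadjusted p = 0.485) and TMEM109 in control animals at -0.06 (limma, unadjusted p = 0.332). DSCC1, a protein of sister chromatid cohesion, was 4.03, 3.82, 3.73, 4.06 and 3.86 in the 5 FASD animals at 5 months and 3.97, 4.33, 4.21, 4.49 and 4.00 in the 5 FASD animals at 2 years. Its age difference was 0.30 (unadjusted p = 0.00929) in FASD animals and -0.22 in control animals, and the interaction was 0.52 (standard error 0.14, unadjusted p = 0.00153 by limma). GPD1, a glycerol phosphate dehydrogenase of oligodendrocytes, was 8.75, 8.84, 8.58, 8.45 and 8.42 in the 5 FASD animals at 5 months and 8.42, 8.12, 8.42, 8.36 and 8.09 in the 5 FASD animals at 2 years. All animals at 2 years were below all animals at 5 months, animals 1 and 3 barely so, and the age difference was -0.32 (unadjusted p = 0.00752), that of controls 0.19, and the interaction -0.51 (standard error 0.15, unadjusted p = 0.0024 by limma). TMEM109, a membrane protein of the nucleus and endoplasmic reticulum, was 7.87, 7.99, 7.85, 7.71 and 7.91 in the 5 FASD animals at 5 months and 8.17, 8.18, 8.04, 7.95 and 8.24 in the 5 FASD animals at 2 years, with an age difference of 0.25 (unadjusted p = 0.00152), -0.06 in controls and an interaction of 0.31 (standard error 0.09, unadjusted p = 0.00295 by limma). One probe set of GLE1, an export factor of messenger RNA at the nuclear pore, had an age difference of 0.18 (unadjusted p = 0.0172), -0.15 in controls and an interaction of 0.33 (standard error 0.09, unadjusted p = 0.00201 by limma), while the interaction of its second probe set was -0.26 (unadjusted p = 0.26). The interactions of ACAN at -0.62 (unadjusted p = 0.02), SV2C at 0.78 (unadjusted p = 0.0167) and GAD1 at 0.36 (unadjusted p = 0.0186) were also under an unadjusted p of 0.05, and none of these had an adjusted p under 0.05. ACAN, SV2C and GAD1 were named by their age difference in FASD animals, which favours a low interaction p.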

How the data were processed

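The authors processed the Affymetrix arrays, 1 per animal, with RMA (software version not given in the sources). They deposited log2 intensities of the annotated probe sets that passed their detection filter. For each gene of its own annotation, the paper kept only the probe set of highest mean level. Probe sets that share a symbol here therefore counted as different genes there. The deposited values were used with no further scaling or filter. The columns of 2 discarded arrays held no values. The paper set both aside, 1 FASD array of each age, as outliers in a principal component analysis. The title of the discarded FASD array at 5 months bears the number 2, which a kept array also bears, while the paper's supplement numbers the discarded one 1. The kept array was taken as FASD animal 2 at 5 months. Control animal 6 at 5 months has a source name that says 2 years, and its title, description and age placed it at 5 months. Platform annotation gave 1 symbol for 8730 of 11512 rows (8208 symbols), several for 88 and none for 2694, and symbols can be old.

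A mean per group was fitted to all 22 arrays with limma 3.58.1 in R 4.3.3, with empirical Bayes moderation and Benjamini-Hochberg adjustment, and tested on simulated data. An analysis of variance on the 4 group means, with the same contrasts and no moderation, was run as an alternative. The study's own test of age over both exposures was not repeated. Figures used matplotlib 3.10.9 in Python 3.11.15. The number of arrays limits the precision.

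The comparison, the 24 gene lists and the named genes were chosen with earlier results of these data known. Named genes, among rows with 1 symbol not starting with LOC, were the 12 of lowest p for age in FASD animals, the 5 most higher and 5 most lower among rows with p under 0.01, the 6 of lowest interaction p, SOX4, GPBP1L1, SEMA3C, SPP1 and RHPN2 (which has no row), and in each list the 3 members of lowest p and any with p under 0.01. Alternatives were an intensity trend with robust variances, FASD arrays only, array weights, centring, quantile normalization, 1 probe set per symbol, probe sets above the median expression, the replicate block and leaving out each array. Sequences of probes or genes were not used here.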

Additional observations from a re-analysis of the deposited data

Results flagged for a closer look

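In 222 sets of 5 FASD animals of 1 age, for gene lists and named genes, 16 had a highest or lowest animal far from the other 4 (Dixon's test at 95%), a rule that chance meets in about 1 in 20 sets. Animal 2 at 5 months accounted for 9 of them. In it the MHC and interferon list had a mean of 0.112, against -0.159 to -0.106 in the other 4, and the heat shock list -0.161, against -0.046 to -0.00247. Its levels were lowest for MAN2A2 at 8.53 (others 8.97 to 9.05), GRIA1 at 9.14 (others 10.78 to 11.04), SLC12A5 at 10.90 (others 11.40 to 11.44) and MRC1 at 9.63 (others 10.13 to 10.26). They were highest for NPAS1 at 9.59 (others 8.82 to 9.01), MCM5 at 6.93 (others 6.70 to 6.74) and TM7SF2 at 10.12 (others 9.69 to 9.81).

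At 2 years, animal 4 was lowest for the heat shock list at -0.0701 (others 0.00259 to 0.0279) and for MAMU-I at 8.99 (others 9.39 to 9.54), and highest for CMTM7 at 7.45 (others 7.19 to 7.24). Animal 2 was highest for the ribosomal protein list at 0.0407 (others -0.0693 to -0.0422) and for PEG3, an imprinted gene, at 10.54 (others 9.50 to 9.76). Animal 3 was highest for GRIK1 at 7.83 (others 7.531 to 7.599). SREBF2 was lowest in animal 3 at 5 months, at 7.63 (others 7.70 to 7.72).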

How the results depend on the processing

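The count of 805 probe sets at an unadjusted p under 0.05 in FASD animals was between 567 and 1010 when each array was left out in turn, and 443 in probe sets above the median mean expression. None passed an adjusted p under 0.05 by limma, by the analysis of variance, or with array weights, centring or quantile normalization. Leaving out 1 array gave 0 to 2 (SOX4 and BZW2 without FASD animal 4 at 2 years), and the replicate block gave 1 (LOC719363, adjusted p = 0.0256). The share higher was 59.0% with FASD arrays only, 57.9% with array weights, 56.4% with centring, 58.8% with quantile normalization, 61.1% with the replicate block, 72.2% above the median expression, 53.2% without animal 2 of both FASD groups (chosen after seeing the data) and 55.9% to 72.8% without single arrays, lowest without FASD animal 2 at 5 months.

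In controls the count was 1353 with array weights, 297 above the median expression and 515 to 1344 without single arrays, highest without control animal 2 at 2 years. Those with an adjusted p under 0.05 numbered 12 with array weights, 1 with the replicate block and 0 to 6 without single arrays, highest without FASD animal 4 at 2 years. The share higher was 37.0% with array weights, 54.7% with centring, 46.7% with quantile normalization and 28.5% to 43.6% without single arrays. For the interaction the count was 724 with array weights, 145 above the median expression and 253 to 755 without single arrays, highest without control animal 2 at 2 years. The share higher was 64.8% with array weights, 38.2% with centring, 51.8% with quantile normalization, 60.8% with the replicate block and 59.4% to 74.6% without single arrays. The correlation of FASD and control age differences was 0.244 to 0.385 without single arrays. The cause was not tested.

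Same-numbered FASD animals of the 2 ages deviated from their group means with correlations of 0.389, -0.06, 0.185 and 0.245 for numbers 2, 3, 4 and 6. Differently numbered ones had correlations of -0.383 to 0.336, so that the value for number 2 was the highest of all. The numbers were not taken to pair animals because no label describes them as pairs. Whether animals of the same number share anything was not tested. The replicate block gave 528 higher and 336 lower. Among single genes, GRIA1 turned to -0.0552 (unadjusted p = 0.676) without FASD animal 2 at 5 months and was up to 0.419 without other single arrays, and GRIA4 turned to -0.0119 (unadjusted p = 0.925) without FASD animal 2 at 2 years and was up to 0.119 without others.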
